A study of Mus musculus with 8 samples.

Results

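The C1q/TNF-related proteins are secreted relatives of adiponectin, the hormone encoded by Adipoq, and 9 of their genes were described here in ribosome-bound RNA from mouse skin: C1qtnf1, C1qtnf2, C1qtnf3, C1qtnf4, C1qtnf5, C1qtnf6, C1qtnf7, C1qtnf9 and C1qtnf12. The genes were selected by their symbols among 53700 gene identifiers, with no threshold on a measured value. The family itself was proposed when results of these data were already known, so the tests below are not independent of that choice. Counts were found for 8 of the 9, and the same 8 were among the 18656 genes with enough counts to be tested. Adipoq is given beside them as the family's reference gene.

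All 8 libraries came from mice of the genotype AdipoqCreER;R26-NuTRAP that had been given tamoxifen, the uninjured controls included. AdipoqCreER is a recombinase driven from the adiponectin gene that acts after tamoxifen, and NuTRAP then tags the ribosomes of the recombined cells with GFP. The mice were 7 to 9 weeks old, and their skin was in telogen, the resting phase of the hair cycle. Uninjured skin gave 3 libraries, and skin wounded with 4 full-thickness punches of 5 mm gave 2 libraries at day 3 and 3 libraries at day 7, where the days were read from abbreviated sample titles. RNA was recovered with an antibody against GFP, and 20 ng entered each library. The labels do not say whether replicates are separate animals, so p-values measure the spread between these samples, which may be technical.

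The libraries held 5308959 to 17751689 counts, and 24301 to 29823 genes had a count in each. All 10 adipocyte markers listed, among them Plin1 and Cidec, had counts in every library, and their summed level ranged from 28948 to 49480 CPM (counts scaled to a common library total by the trimmed mean of M values). Fabp4 was the largest part of this sum, at 15363 to 30925 CPM. Cidec averaged 3906 CPM uninjured and 1737 CPM at day 7, and Plin1 865 and 548 CPM. Between those groups 2 of the 10 markers had a positive log2 difference, and edgeR called none. Markers of other cell types were present too. The summed level of 10 luminal epithelial markers, keratins such as Krt8 among them, was 1688.5 CPM in day 3 replicate 1 and 25.02 CPM in day 3 replicate 2. Among day 7 libraries, replicate 3 stood apart, with Adipoq at 5177 CPM against 1803 and 2789 CPM in replicates 1 and 2. In such bulk RNA, fewer cells of a type and less RNA per cell cannot be told apart. The column names carry a number that differs between the groups, and whatever it marks cannot be told apart from the wounding times.

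A typical family member has a variable N-terminal part, a collagen-like stretch in which every residue in 3 is glycine, and a C-terminal globular C1q domain. The C1q domains bring 3 chains together, and the collagen-like stretches wind into a triple helix, from which larger complexes are built. Adiponectin made this way by fat cells circulates and acts on liver and muscle through the receptors AdipoR1 and AdipoR2. Its relatives are made by a wider range of cells, including fibroblasts, chondrocytes, vascular and immune cells.

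The coding sequences of the genes that follow differ in the length of their longest unbroken run of glycine triplets, which can be shorter than the whole collagen-like stretch. Below are the first triplets of that run for Adipoq and for the members whose levels rose or that dominated the family. They were taken from coding transcripts of GENCODE M21 (GRCm38), 5′ to 3′ on the coding strand, with each glycine codon in capitals.
Adipoq: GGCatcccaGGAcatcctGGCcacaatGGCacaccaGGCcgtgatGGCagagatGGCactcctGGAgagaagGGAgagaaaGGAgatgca
C1qtnf12: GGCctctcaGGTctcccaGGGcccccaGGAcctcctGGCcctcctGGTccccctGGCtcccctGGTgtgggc
C1qtnf3: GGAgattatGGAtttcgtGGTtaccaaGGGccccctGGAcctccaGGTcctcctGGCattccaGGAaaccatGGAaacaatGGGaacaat
C1qtnf2: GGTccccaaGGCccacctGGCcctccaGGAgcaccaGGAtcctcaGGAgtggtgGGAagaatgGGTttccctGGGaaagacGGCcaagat
C1qtnf6: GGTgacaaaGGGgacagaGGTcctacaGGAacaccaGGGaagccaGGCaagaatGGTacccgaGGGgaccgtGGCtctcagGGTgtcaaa
C1qtnf9: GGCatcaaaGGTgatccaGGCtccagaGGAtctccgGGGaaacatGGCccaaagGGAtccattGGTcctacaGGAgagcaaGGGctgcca

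In these triplets each triplet opens with a glycine codon, without a break. The whole unbroken run held 22 triplets in Adipoq, 37 in C1qtnf9, 34 in both C1qtnf2 and C1qtnf7, 23 in both C1qtnf3 and C1qtnf5, 14 in both C1qtnf1 and C1qtnf6, and 8 in C1qtnf12, all of which are shown for the last. C1qtnf4 had a longest run of only 2 triplets, and the protein is known for a pair of C1q domains with no collagen-like stretch between them. In the best local alignment of each translated member to the last 140 residues of Adipoq, C1qtnf9 was the most similar member at 51.4% identity, followed by C1qtnf5 (43.7%), C1qtnf7 (43.4%) and C1qtnf2 (43.2%). C1qtnf6 (33.3%), C1qtnf3 (31.8%), C1qtnf4 (30.6%) and C1qtnf1 (30.5%) were further away, and the stretch of C1qtnf4 that aligned was codons 21 to 160 of its 326. For C1qtnf12 the best alignment covered only 38 columns, with 36.8% identity. Over the last 140 residues of the members themselves, C1qtnf2 and C1qtnf7 were identical at 95 of 127 aligned residues (74.8%), and C1qtnf1 and C1qtnf6 at 85 of 135 (63.0%), while no other pair went above 47.7%.

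Per kilobase of gene model, C1qtnf12 was the family's dominant transcript in every library. C1qtnf12 encodes adipolin, a hormone of adipose tissue that lowers glucose production and improves insulin action. Its level was 180, 192 and 226 RPKM, a read count scaled for gene length and library size, in the uninjured libraries, 216 and 170 RPKM at day 3, and 106, 124 and 194 RPKM at day 7. These levels placed it between percentiles 97.4 and 98.4 of the genes tested in each library. Adipoq, on the same scale, was at 3554, 3913 and 3911 RPKM uninjured, 2411 and 2779 RPKM at day 3, and 1305, 2019 and 3748 RPKM at day 7. Expressed as a share of Adipoq in the same library, C1qtnf12 stood at 5.26% ± 0.467 (SD, n = 3) uninjured, 7.53% ± 2.003 (SD, n = 2) at day 3 and 6.46% ± 1.48 (SD, n = 3) at day 7.

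After C1qtnf12, the order of the members in uninjured skin was C1qtnf1 at 6.34 ± 3.55 RPKM (SD, n = 3), C1qtnf4 at 2.84 ± 0.873, C1qtnf2 at 1.06 ± 0.419, C1qtnf3 at 0.780 ± 0.542, C1qtnf6 at 0.587 ± 0.405, C1qtnf9 at 0.562 ± 0.286 and C1qtnf7 at 0.405 ± 0.204. Only the steps from C1qtnf12 to C1qtnf1 and from C1qtnf4 to C1qtnf2 had no overlap between libraries, and all other neighbours in that order overlapped. Day 3 kept C1qtnf1 (5.52 ± 4.75 RPKM, SD, n = 2) and C1qtnf4 (3.02 ± 0.658) next in order, but C1qtnf6 at 2.90 ± 0.437 now overlapped them and C1qtnf9 followed at 1.64 ± 0.941. Below these came C1qtnf3 (0.561 ± 0.566), C1qtnf2 (0.525 ± 0.298) and C1qtnf7 (0.264 ± 0.0461), with C1qtnf3 and C1qtnf2 overlapping. By day 7 the places after C1qtnf12 were taken by C1qtnf3 at 19.3 ± 6.71 RPKM (SD, n = 3), C1qtnf2 at 11.7 ± 4.98 and C1qtnf6 at 9.52 ± 2.59. C1qtnf2 overlapped both of the others, while all C1qtnf3 values were above all C1qtnf6 values. C1qtnf1 (3.66 ± 1.09), C1qtnf4 (3.32 ± 1.86) and C1qtnf9 (2.93 ± 1.63) formed a lower overlapping set, and C1qtnf7 stood below them all at 0.442 ± 0.352.

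**Figure D1:**
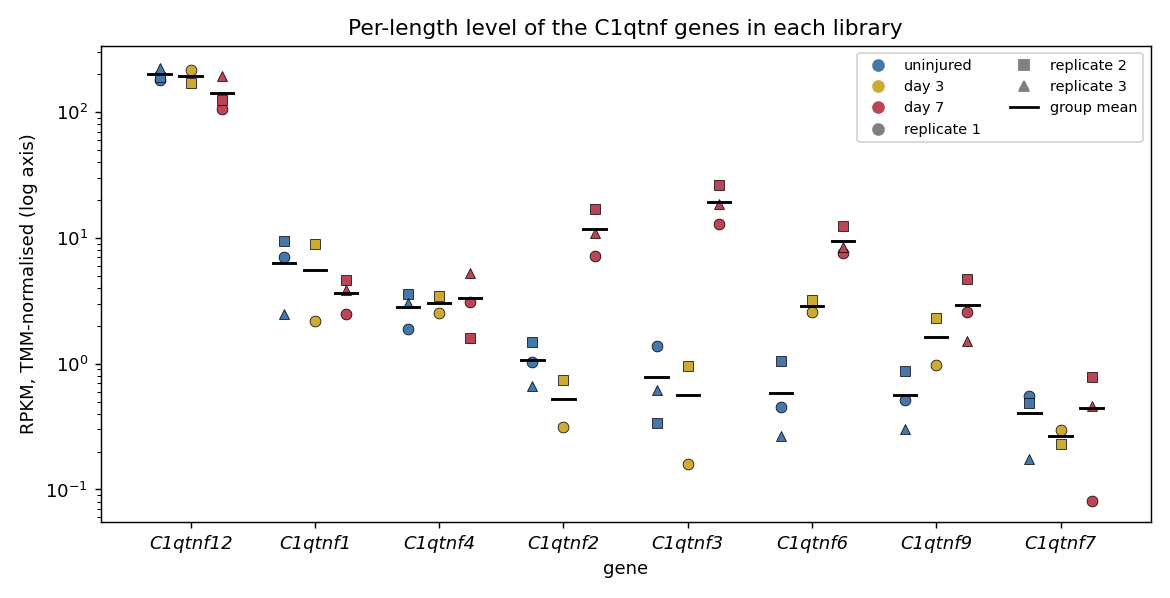
Level of the 8 C1q/TNF-related genes with counts in every library, in RPKM on a log scale, coloured by uninjured, day 3 and day 7 skin, with a symbol per replicate and a bar at each group mean. C1qtnf12 sits between 106 and 226 RPKM throughout, while C1qtnf2, C1qtnf3 and C1qtnf6 at day 7 lie above all earlier libraries.

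Day 7 against uninjured skin addressed which members differed once wounds had begun to repair. C1qtnf3, C1qtnf6, C1qtnf2 and C1qtnf9 rose, no member fell, and C1qtnf12, C1qtnf1, C1qtnf4 and C1qtnf7 did not pass the test (edgeR's quasi-likelihood test, Benjamini-Hochberg adjusted over all 18656 genes, threshold 0.05). Of all genes tested, 5.9% were called higher and 1.77% lower in this comparison. At an unadjusted p under 0.05 by edgeR, 4 of the 8 members differed, the same 4, against 4987 of all 18656 genes. DESeq2 called 4 members higher and 0 lower, against 2602 of all 18656 genes in either direction. The median log2 difference of the 8 tested members was 1.26, against 0.04 over all genes.

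C1qtnf3, also called CTRP3 or cartducin, is known from growing cartilage and from connective and adipose tissue. The table places its model on chromosome 15 from 10952418 to 10980236, plus strand. C1qtnf3 was at 3.54, 0.857 and 1.59 CPM uninjured, 0.411 and 2.46 CPM at day 3, and 32.9, 67.2 and 47.9 CPM at day 7. Every day 7 library was above every other library, and the lowest day 3 value rested on 2 counts. The day 7 level exceeded the uninjured one 25.7-fold (log2 4.68 ± 0.58 SE, edgeR adjusted p = 0.00259). Without uninjured replicate 1, which held the highest uninjured value, the log2 difference was 5.39.

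C1qtnf2 encodes CTRP2, a secreted member tied to lipid metabolism, on chromosome 11 from 43365103 to 43382352, plus strand. Its level was 1.34, 1.96 and 0.867 CPM uninjured, 0.411 and 0.962 CPM at day 3, and 9.40, 22.3 and 14.4 CPM at day 7. As for C1qtnf3, the day 7 libraries were set apart and the day 3 libraries were not above the uninjured ones. The lowest day 3 value of C1qtnf2 also rested on 2 counts. The rise at day 7 over uninjured skin was 10.6-fold (log2 3.41 ± 0.49 SE, edgeR adjusted p = 0.0048).

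C1qtnf6 encodes CTRP6, known for restraining the alternative complement pathway and for a role in adipose inflammation. Its model lies on chromosome 15 from 78407546 to 78415616, minus strand, and shares 117 of 2702 exonic bases with the antisense gene Gm49490, which had 0 to 2 counts in each library. C1qtnf6 was at 1.22, 2.82 and 0.722 CPM uninjured, 6.99 and 8.66 CPM at day 3, and 20.6, 33.7 and 22.9 CPM at day 7. The 3 groups were ordered without overlap, with day 3 between the others. From uninjured skin to day 7 it rose 15.1-fold (log2 3.91 ± 0.46 SE, edgeR adjusted p = 0.00208), and without uninjured replicate 2 the log2 difference was 4.69.

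C1qtnf9 encodes CTRP9, the member with the highest identity to adiponectin here, known from adipose tissue and the heart's vessels. It lies on chromosome 14 from 61005583 to 61018318, plus strand. C1qtnf9 was at 0.976, 1.65 and 0.578 CPM uninjured, 1.85 and 4.38 CPM at day 3, and 4.87, 8.96 and 2.87 CPM at day 7. All 5 wounded libraries exceeded all 3 uninjured ones, while days 3 and 7 overlapped. The day 7 rise was 4.96-fold (log2 2.31 ± 0.60 SE, edgeR adjusted p = 0.0427). This call was lost when any 1 uninjured library, or day 7 replicate 1 or 2, was left out, with adjusted p up to 0.181 and log2 differences of 1.81 to 2.81 over all 8 such fits.

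The other 4 tested members gave no call at day 7. C1qtnf12, on chromosome 4 from 156046775 to 156051086, plus strand, was at 246, 262 and 309 CPM uninjured, 294 and 232 CPM at day 3, and 144, 169 and 265 CPM at day 7. Its log2 difference between day 7 and uninjured skin was -0.50 ± 0.26 SE, with a 95% interval from -1.08 to 0.08 (edgeR adjusted p = 0.246). Without day 7 replicate 3, C1qtnf12 passed the test as lower, with a log2 difference of -0.80 (edgeR adjusted p = 0.0321). Adipoq, which has its highest day 7 value in the same library, had a log2 difference of -0.69 ± 0.39 SE (edgeR adjusted p = 0.277).

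C1qtnf1, whose product CTRP1 is known from vessel walls and adipose tissue, had a wide spread between replicates. It was at 22.1, 29.7 and 7.80 CPM uninjured, 6.79 and 27.8 CPM at day 3, and 7.81, 14.6 and 11.98 CPM at day 7. The day 7 difference was -0.80 on the log2 scale, with a 95% interval from -1.99 to 0.38 (edgeR adjusted p = 0.355). Its model, on chromosome 11 from 118319029 to 118340789, plus strand, shares 642 of 3131 exonic bases with the antisense gene Gm11747, which had 0 to 4 counts in each library.

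C1qtnf4, on chromosome 2 from 90716204 to 90720869, plus strand, encodes a protein known from brain and immune cells. It was at 2.44, 4.65 and 3.90 CPM uninjured, 3.29 and 4.49 CPM at day 3, and 3.96, 2.05 and 6.83 CPM at day 7. The groups overlapped throughout, and the 95% interval of the day 7 log2 difference ran from -0.90 to 1.31 (edgeR adjusted p = 0.815). C1qtnf7, on chromosome 5 from 43672881 to 43776145, plus strand, had the fewest counts in all among the members with any. Its values were 2.32, 2.02 and 0.722 CPM uninjured, 1.23 and 0.962 CPM at day 3, and 0.340, 3.27 and 1.92 CPM at day 7. With 126 counts over the 8 libraries, its interval was wide, from -1.50 to 1.73 on the log2 scale (edgeR adjusted p = 0.933).

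C1qtnf5, on chromosome 9 from 44018542 to 44020484, plus strand, had 0 counts in all 8 libraries. CTRP5 is known from the eye, where a mutation of it causes retinal degeneration, and its gene is transcribed together with Mfrp. All 1589 exonic bases of the C1qtnf5 model also belong to Mfrp on the same strand, so reads there could not be given to C1qtnf5 alone. How reads matching more than 1 gene were treated is not given in the sources used here, and the 0 is therefore not evidence of no transcript. Mfrp itself had 6 counts in all 8 libraries together. The floor of 3 counts corresponds to 0.169 to 0.565 CPM and covers counting error only.

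**Figure D2:**
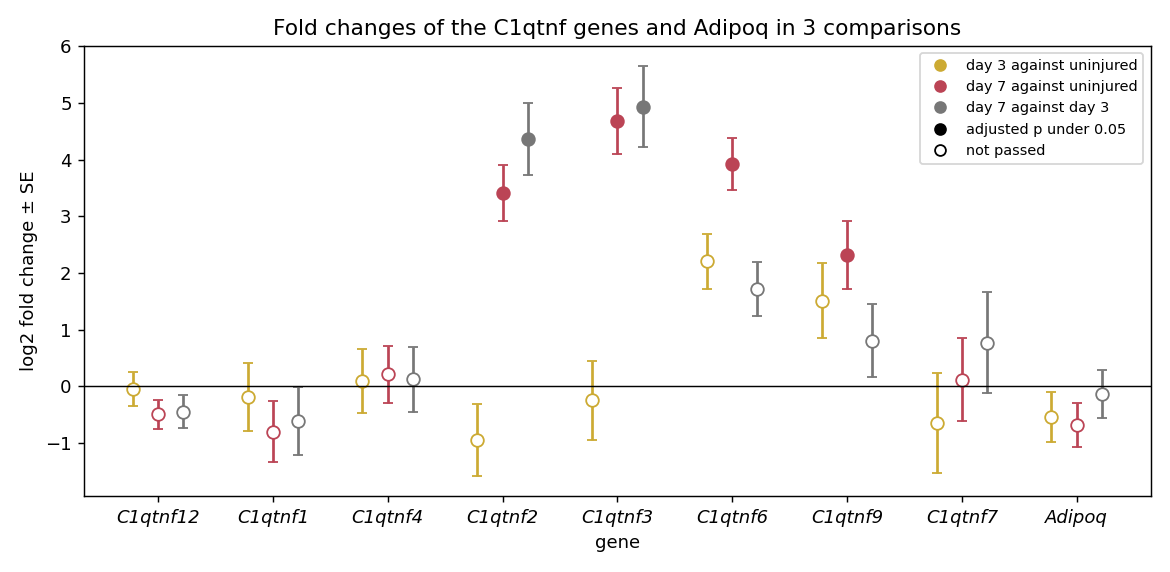
Log2 difference of each tested member and of Adipoq in the 3 comparisons, as points with standard errors from the edgeR fit, filled where the adjusted p was under 0.05. C1qtnf3, C1qtnf6, C1qtnf2 and C1qtnf9 lie above 2 at day 7 against uninjured skin, and C1qtnf2 and C1qtnf3 lie above 4 at day 7 against day 3.

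Day 3 against uninjured skin gave no call among the members. Only 0.0107% of all genes were called higher and 0% lower, so that the 0 of 8 stands against an almost empty background. At an unadjusted p under 0.05, 2 of the 8 members differed, against 2418 of all 18656 genes. DESeq2 called 1 of the 2, C1qtnf6, against 432 of all 18656 genes in either direction. By edgeR the day 3 value of C1qtnf6 was 4.61-fold the uninjured one (log2 2.20 ± 0.48 SE, adjusted p = 0.167), and by DESeq2 its adjusted p was 0.0029. C1qtnf9 was the other, at 2.84-fold (log2 1.51 ± 0.66 SE, edgeR adjusted p = 0.375). Both had day 3 libraries wholly above the uninjured ones. C1qtnf2 (log2 -0.95 ± 0.63 SE, edgeR adjusted p = 0.536) and C1qtnf3 (log2 -0.25 ± 0.70 SE, edgeR adjusted p = 0.905) did not.

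Day 7 against day 3 compared the later with the earlier wound. C1qtnf3 was 30.5-fold higher at day 7 (log2 4.93 ± 0.71 SE) and C1qtnf2 20.6-fold higher (log2 4.36 ± 0.64 SE), each with an edgeR adjusted p of 0.0355. Across all genes 0.0643% were called higher and 0.0214% lower. C1qtnf6 was 3.27-fold higher without overlap between the libraries but did not pass by edgeR (log2 1.71 ± 0.48 SE, edgeR adjusted p = 0.323). DESeq2 called 3 members higher here, C1qtnf6 among them, against 226 of all 18656 genes in either direction. C1qtnf9 had a log2 difference of 0.81 ± 0.65 SE (edgeR adjusted p = 0.653). Day 3 had only 2 libraries, and both edgeR calls depended on single ones. The C1qtnf3 call was lost without day 3 replicate 1 (log2 4.31) or without any 1 day 7 library, with adjusted p up to 0.153, and its log2 difference was 6.87 without day 3 replicate 2. The C1qtnf2 call was kept only without uninjured replicate 3, with adjusted p up to 0.192 otherwise, and its log2 difference was 5.19 without day 3 replicate 2. It was also lost when only the 2 groups compared were fitted (adjusted p = 0.073).

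The 4 genes that rose at day 7 had different values at day 3. C1qtnf2 and C1qtnf3 were within or below the uninjured range at day 3 and above it at day 7, whereas C1qtnf6 and C1qtnf9 were already above it at day 3. Across the 8 libraries, log levels of C1qtnf2 and C1qtnf3 had a Pearson r of 0.95 and those of C1qtnf6 and C1qtnf9 an r of 0.92, against 0.67 to 0.75 for the pairs that cross these sets. The sets were formed from the day 3 values of these same libraries, so the higher r within them restates part of that choice. In day 3 replicate 1, C1qtnf2 and C1qtnf3 rested on 2 counts each. The r values are descriptions over 8 libraries that share group and depth. Whether the day 3 response differs between the pairs was not tested.

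The members closest in sequence were set against each other within each library. The per-kilobase ratio of C1qtnf2 to C1qtnf7, which are 74.8% identical over the aligned part of their last 140 residues, was 1.84, 3.09 and 3.82 uninjured, 1.06 and 3.18 at day 3, and 88.0, 21.7 and 23.9 at day 7. The ratio of C1qtnf6 to C1qtnf1 was 0.0640, 0.110 and 0.107 uninjured, 1.19 and 0.361 at day 3, and 3.06, 2.68 and 2.21 at day 7. The ratio of 88.0 rests on 3 counts of C1qtnf7 in day 7 replicate 1. In both pairs each day 7 library was above every other library. These pairs were chosen after their values were seen, and no test is given.

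Added up per kilobase on scaled library sizes, the family's total overlapped between the groups while its makeup differed at day 7. The sum was 212 ± 20.5 RPKM uninjured (SD, n = 3), 207 ± 24.8 RPKM at day 3 (SD, n = 2) and 192 ± 50.8 RPKM at day 7 (SD, n = 3). C1qtnf12 made up 93.3%, 91.7% and 96.8% of it in the uninjured libraries, 96.0% and 89.6% at day 3, and 74.6%, 64.8% and 79.7% at day 7. The share of C1qtnf3 was 0.160% to 0.717% uninjured and 7.71% to 13.7% at day 7. C1qtnf2 went from 0.283% to 0.715% uninjured to 4.52% to 8.90% at day 7, and C1qtnf6 from 0.114% to 0.498% to 3.48% to 6.51%. C1qtnf1 was at 1.07% to 4.53% uninjured and 1.57% to 2.43% at day 7, with overlap.

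**Figure D3:**
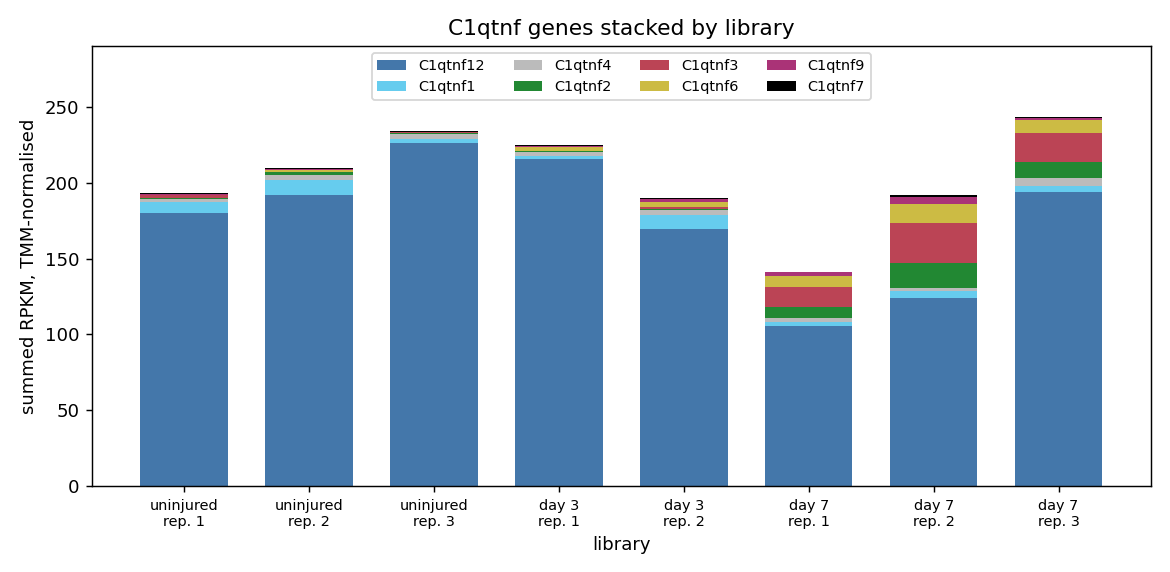
RPKM of the members stacked into 1 bar for each of the 8 libraries. C1qtnf12 makes up 89.6% or more of the bar in uninjured and day 3 libraries and 64.8% to 79.7% at day 7, where C1qtnf3, C1qtnf2 and C1qtnf6 fill most of the rest.

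Marker genes of several other cell types rose at day 7 beside the members that rose, and those of skeletal muscle fell. The counts of markers called stand beside 5.9% of all genes called higher and 1.77% lower. Summed over 10 fibroblast markers, the level was 1712 to 2227 CPM uninjured, 1659.7 and 4931 CPM at day 3, and 6325 to 12567 CPM at day 7, and 6 of the 10 rose at day 7 with none falling. The luminal epithelial sum was 13.4 to 29.9 CPM uninjured and 632 to 1359.7 CPM at day 7, with 9 of 10 rising. Macrophage markers summed to 88.1 to 186 CPM uninjured, 187 and 649 CPM at day 3, and 374 to 794 CPM at day 7, with 3 of 8 rising. Endothelial markers summed to 71.6 to 163 CPM uninjured, 229 and 245 CPM at day 3, and 123 to 465 CPM at day 7, with 6 of 8 rising. The 163 CPM was in uninjured replicate 2, where Cdh5 was at 74.7 CPM, against 2.07 and 3.03 CPM in replicates 1 and 3. Of mural and mast cell markers 3 of 6 and 2 of 6 rose, and of Schwann cell markers 1 of 5 rose and 1 fell. All 8 skeletal muscle markers fell, from a summed 4320.4 to 9652 CPM uninjured, through 2778 and 4688 CPM at day 3, to 734 to 1319 CPM at day 7. By edgeR no keratinocyte marker of 8 and no lymphocyte marker of 4 tested was called, with 0 and 0 at an unadjusted p under 0.05 and 0 and 0 called by DESeq2. None of the 10 adipocyte markers was called at day 7 by edgeR. DESeq2 called 1, as lower, against 2602 of all 18656 genes in either direction. An unadjusted p under 0.05 was found for 3 of the 10, against 4987 of all 18656 genes. Every fibroblast, macrophage and endothelial marker had counts in all libraries, also in the uninjured ones.

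All 4 members that rose went with several of these sums at once. Their Pearson r with the fibroblast sum over the 8 libraries, on a log scale, was 0.91 for C1qtnf9, 0.89 for C1qtnf3 and 0.88 for both C1qtnf2 and C1qtnf6. With the macrophage sum it was 0.98 for C1qtnf9, 0.90 for C1qtnf6, 0.65 for C1qtnf3 and 0.64 for C1qtnf2. With the lymphocyte sum, which stayed between 3.32 and 8.02 CPM, it was 0.96, 0.95, 0.84 and 0.83 in the same order. With the muscle sum it was negative for all 4, from -0.68 for C1qtnf9 to -0.83 for C1qtnf6. For C1qtnf9 and C1qtnf6, r was also 0.94 and 0.89 with the mast cell sum, and 0.88 and 0.85 with the mural sum. With the endothelial sum it was 0.87 and 0.79. C1qtnf2 and C1qtnf3 had r values of 0.41 to 0.57 with these sums. For C1qtnf12, r was 0.70 with the adipocyte sum, of which Fabp4 was the largest part, and -0.81 with the fibroblast sum. It was 0.64 with the muscle sum, and -0.70 to -0.78 with the endothelial, mural, macrophage, mast cell and lymphocyte sums. In day 3 replicate 1, where the luminal epithelial sum was at its highest, C1qtnf2 and C1qtnf3 were at their lowest. Each had 2 counts there, under the floor of 3 counts, in the library with the fewest counts in all. The part of these cell types in the members' differences was not tested.

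**Figure D4:**
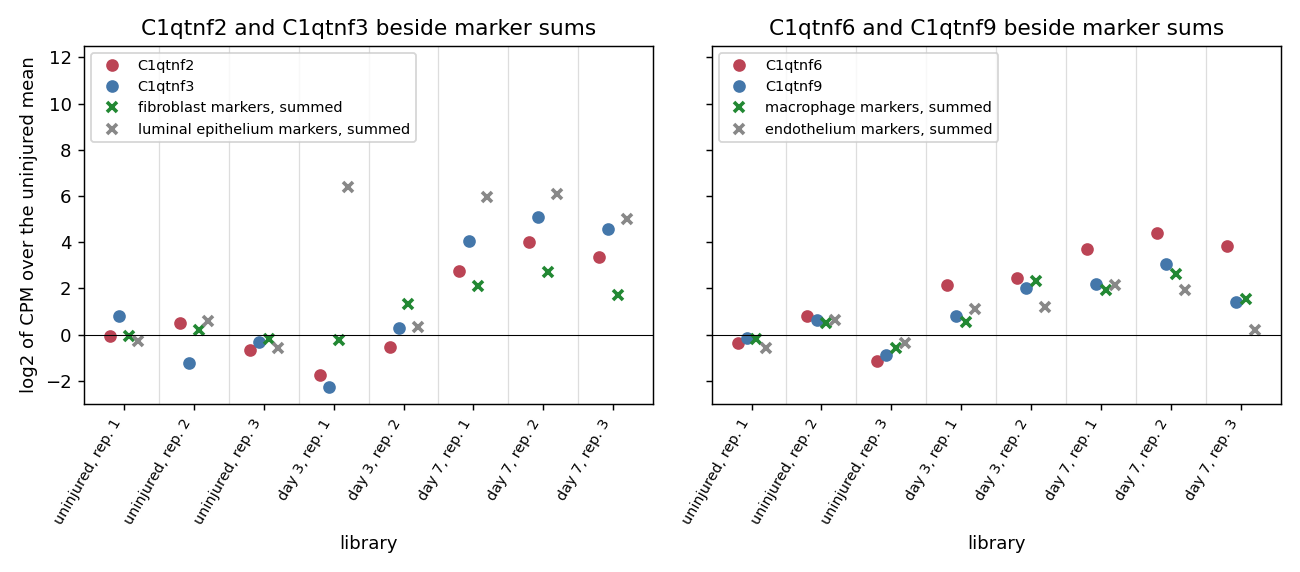
Level of 4 members (circles) and of summed marker genes (crosses) in each library, as log2 of CPM over the uninjured mean. Left, C1qtnf2 and C1qtnf3 with fibroblast and luminal epithelial markers, the latter high in day 3 replicate 1, where both genes rest on 2 counts each. Right, C1qtnf6 and C1qtnf9 with macrophage and endothelial markers.

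The genes whose log levels were most like each member's over the 8 libraries were found among 11836 other genes (11837 for members below the minimum) with a mean of at least 5 CPM. For C1qtnf3 they were Mfap4 (Pearson r = 0.994), Aspn (0.976) and Prss35 (0.975), of which Mfap4 and Aspn encode extracellular matrix proteins. Prss35 (0.989), Ccn4 (0.974) and Fmnl2 (0.974) came first for C1qtnf2. C1qtnf6 was most like the matrix metalloproteinase genes Mmp3 (0.992) and Mmp11 (0.987), then Selenom (0.984). C1qtnf9 was most like Aplnr (0.997), the receptor for apelin on endothelium, Lmo2 (0.985) and Lyz2 (0.984), the lysozyme gene of macrophages. C1qtnf12 was most like D10Jhu81e (0.998), Prdx3 (0.993) and Atp5a1 (0.993), the last a subunit of the mitochondrial ATP synthase. Rarres2 (0.962), the gene of the adipokine chemerin, came first for C1qtnf1. The nearest genes to C1qtnf4 reached only 0.875 (Rnf25), and those to C1qtnf7 0.944 at most.

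Of 22 other genes with a C1q domain, Adipoq included, 12 were tested at day 7 against uninjured skin. Of these, 5 rose, none fell and 7 did not pass, beside 5.9% of all genes called higher and 1.77% lower. Their median log2 difference was 1.82, against 0.04 over all genes. Col8a1, a short-chain collagen of vessel walls and basement membranes with a C1q domain, was at 0.488, 2.82 and 1.01 CPM uninjured, 3.70 and 4.06 CPM at day 3, and 25.8, 53.8 and 27.4 CPM at day 7. It rose 22.6-fold (edgeR adjusted p = 0.00241). The emilins, glycoproteins of elastic fibres, rose 4.41-fold for Emilin2 (edgeR adjusted p = 0.0319) and 3.29-fold for Emilin1 (0.0381). Mmrn2, an endothelial matrix protein gene, rose 7.81-fold (0.0339), although its day 7 replicate 3 was within the uninjured range. C1qc, a chain of complement C1q made by macrophages, rose 3.60-fold (0.0494), while its partners C1qa (adjusted p = 0.0687) and C1qb (0.0529) did not pass. Col8a1 kept its call whichever library was left out. The calls of Emilin2, Mmrn2 and C1qc were lost without any 1 uninjured library or without day 7 replicate 1 or 2, and that of Emilin1 when replicate 1 or 3 of uninjured skin or replicate 1 or 2 of day 7 was dropped.

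On the receiving side, 12 of 13 listed receptor and signalling genes were tested, 1 rose and 1 fell at day 7, and the median log2 difference was -0.24. With 5.9% of all genes called higher and 1.77% lower, such single calls say little about a list of 12. The adiponectin receptor gene Adipor1 was at 195 to 237 CPM uninjured and 137 to 215 CPM at day 7 (log2 -0.22, edgeR adjusted p = 0.552). Adipor2 was at 205 to 253 CPM uninjured and 153 to 233 CPM at day 7 (log2 -0.27, edgeR adjusted p = 0.512). Cdh13, the T-cadherin that binds adiponectin multimers, had a log2 difference of 0.70 (edgeR adjusted p = 0.345). Appl2, an adaptor of the receptors, rose 2.20-fold (edgeR adjusted p = 0.0307), and Prkaa2, a catalytic subunit of AMP-activated kinase, fell by 1.21 on the log2 scale (edgeR adjusted p = 0.0421). The Appl2 call was lost without any 1 uninjured library or day 7 replicate 1 or 2, and the Prkaa2 call by dropping any of the 4 libraries named for Emilin1.

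Genes that assemble or process these proteins were mostly without a call. Of 16 listed, 15 were tested, and only P4ha3 passed at day 7, with a median log2 difference of -0.13 over the 15. That 1 call of 15 is near the 5.9% of all genes called higher. P4ha3 is a prolyl hydroxylase subunit that modifies collagen-like stretches, and it was at 1.59 to 2.82 CPM uninjured, 1.65 and 7.38 CPM at day 3, and 19.5 to 34.2 CPM at day 7. It rose 10.1-fold (edgeR adjusted p = 0.00621), and the call held whichever library was left out. Furin, a protease known to cleave adipolin, had a log2 difference of 0.13 (edgeR adjusted p = 0.721), and Klf15, reported to control adipolin's gene, one of -0.79 (edgeR adjusted p = 0.177). Against uninjured skin at day 3, edgeR called none of the C1q-domain, receptor and assembly genes, and DESeq2 called 3, 0 and 1. Of all 18656 genes, DESeq2 called 432 in that comparison. An unadjusted p under 0.05 was found for 7 of 12, 2 of 12 and 3 of 15, against 2418 of all 18656 genes. Between day 7 and day 3, edgeR again called none, and DESeq2 called 1, 0 and 1, beside 226 of all 18656 genes. Here 2 of 12, 1 of 12 and 3 of 15 had an unadjusted p under 0.05, against 2054 of all 18656 genes.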

How the data were processed

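The values analysed were read counts per gene, deposited by the authors as a raw table with 1 column for each library. The tool was featureCounts 2.0.8, per the file headers. The submitters' processing notes also name STAR 2.7.10b, DESeq2 and mm10. Strand handling is not given in the sources used here. RPKM used the deposited length column, per the file headers. Coordinates were copied from the table without a settled build and should not be read as mm10 positions, although the notes name mm10. Of the 52093 identifiers given a symbol by GENCODE M21 (GRCm38), only 1491 had the same start there. Another 1607 identifiers had no symbol and held 0.0535% to 0.493% of a library's counts.

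Genes passing edgeR's filter at a minimum count of 10 (18656) were scaled by the trimmed mean of M values and fitted in edgeR 4.0.16 (R 4.3.3), with 1 mean per group over all 8 libraries and 5 residual degrees of freedom. Quasi-likelihood F tests were two-sided, with Benjamini-Hochberg adjustment over all genes at 0.05. A standard error is the log2 fold change divided by the square root of F, and 95% intervals use the test's own moderated degrees of freedom. CPM and RPKM were computed from counts and scaled library sizes. The fit was also run on simulated counts with the same spread for every gene and no outlying library. That run cannot show how the fit handles outlying libraries. Alternatives were DESeq2 1.42.0 (size factors, and its Wald test), upper-quartile scaling, no filter, a minimum count of 30, the compared groups alone, TPM for levels, a replicate block and left-out libraries. Leaving out day 3 replicate 1 and day 7 replicate 3 together was added after seeing the data. Coding sequences were translated and aligned with Biopython 1.88.

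The members and all gene lists were chosen with earlier results of these data known. The naming rule covered all members, Adipoq, the 3 genes most like each member, and up to 4 genes that passed per list by smallest adjusted p. C1qc, C1qa, C1qb, C1ql2, Adipor1, Adipor2, Cdh13, Furin and Klf15 are named beyond that rule, with their values seen.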

Additional observations from a re-analysis of the deposited data

Results flagged for a closer look

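C1qtnf2 and C1qtnf3 differed between the wound times themselves: the log2 difference of day 7 over day 3 was 4.36 and 4.93 in the edgeR contrast, while neither gene's day 3 libraries were above the uninjured range.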

How the results depend on the processing

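At day 7 against uninjured, C1qtnf2, C1qtnf3 and C1qtnf6 were called in all 16 alternatives, with adjusted p up to 0.0305, 0.0157 and 0.0140. The edgeR fit called 1431 genes there, 2 at day 3 against uninjured and 16 at day 7 against day 3. In that order, no filter called 3156, 926 and 572 genes, and the DESeq2 test 2602, 432 and 226. Members called at day 3 against uninjured numbered 1 under each of these, against 0. The minimum count of 30 and the compared groups alone each gave 0 genes at day 3 against uninjured, and upper-quartile scaling 26 genes at day 7 against day 3. Without day 3 replicate 1 and day 7 replicate 3 together the counts were 4534, 171 and 58 genes, with 5, 0 and 0 members, C1qtnf12 being the one added, as lower.

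Leaving out 1 library at a time called 314 to 4055, 0 to 150 and 5 to 34 genes, and 3 to 5, 0 to 0 and 0 to 2 members. Uncalled members changed sign in these fits. Their log2 ranges at day 7 against uninjured were -0.30 to 0.56 for C1qtnf4 and -0.59 to 0.59 for C1qtnf7. At day 3 against uninjured they were -1.58 to 0.47 for C1qtnf1, -0.24 to 0.091 for C1qtnf12, -2.20 to 0.48 for C1qtnf3 and -0.18 to 0.31 for C1qtnf4. At day 7 against day 3 they were -1.29 to 0.76 for C1qtnf1 and -0.39 to 0.46 for C1qtnf4. With both libraries out, log2 differences were -0.33 (C1qtnf4, day 7 against uninjured), 0.47 (C1qtnf1) and 0.37 (C1qtnf3) at day 3 against uninjured, and -0.60 (C1qtnf4) at day 7 against day 3. Upper-quartile scaling gave C1qtnf12 0.071 at day 3. The cause of these changes was not tested.

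Same-numbered libraries of different groups correlated at -0.13 to 0.30 in their deviations from the group means, over 0.1 in 4 of 7 pairs. Libraries with different numbers correlated at -0.30 to 0.26. With only 2 libraries, the day 3 deviations mirror each other, so these values cannot decide whether the numbers pair the samples. With a replicate block, 2131, 7 and 126 genes and 4, 0 and 2 members were called, and the log2 difference was 0.12 for C1qtnf12 at day 3 against uninjured and -0.16 for C1qtnf4 at day 7 against day 3. Depth limits C1qtnf7, C1qtnf9 and C1qtnf4, with 126, 252 and 295 counts in all.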

Other observations

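C1ql2, a C1q-like gene known from neurons, had a level in single libraries that did not go with the wounding groups. It was at 31.1 CPM in day 3 replicate 2 and 22.2 CPM in day 7 replicate 3, against 1.34 to 10.3 CPM in the uninjured libraries, 4.32 CPM in day 3 replicate 1, and 5.32 and 3.73 CPM in day 7 replicates 1 and 2. C1ql2 was singled out after its values were seen.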
